A study of Mus musculus with 6 samples.

Results

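Pericellular proteolysis is described here through 9 genes of 39527 in the deposited comparison of WT and KO lung group 2 innate lymphoid cells (ILC2s), tissue lymphocytes that respond to epithelial alarmins. They are the urokinase receptor gene Plaur, the plasminogen activator genes Plau and Plat, the serpin gene Serpine2, the matrix metalloprotease genes Mmp9, Mmp10 and Mmp14, and the metalloprotease inhibitor genes Timp1 and Timp2. Each was found once by its gene name, and 7 of the 9 had an adjusted p-value. The members were chosen by function with their log2 fold changes and p-values in this comparison known, so that these values are a description and support no test.

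Lung ILC2s had been sorted from mice given IL-33, the alarmin that activates them, for 4 days. WT mice carried R5/+ and KO mice carried R5/+ with floxed LKB1 alleles, so that R5 was shared by both groups. Each group had 3 samples and each sample pooled 3 to 4 mice. The sources used here give neither the age of the mice, nor the cells in which R5 acts, nor whether the pools came from separate experiments.

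The values are 1 mean level, 1 log2 fold change and 1 standard error (SE) per gene. Values and depths of single samples were not used here, since their columns carried names that matched no label, so that no value by sample and no overlap of the groups can be given. No source states which genotype is the numerator. Signs are therefore kept as deposited, and neither genotype is named as the higher one for any gene. Stk11, which encodes LKB1, had a deposited log2 value of -1.34 ± 0.30 (SE) by the authors' deposited table, so that a negative value has the sign of the floxed gene. Among 12 tested ILC2 markers, 2 were positive, 3 negative and 7 did not pass an adjusted p of 0.05, with a median log2 fold change of 0.13. The positive markers were Gata3, the lineage factor, with 0.63 ± 0.16 (SE) at a mean of 44552 normalized counts, and Icos with 0.54 by the authors' deposited table. The negative markers were the cytokine gene Il13 with -1.06 ± 0.18 (SE) at a mean of 618.6 normalized counts, Thy1 with -1.98 and Klrg1 with -0.44 by the authors' deposited table.

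Urokinase, bound to its receptor at the cell surface, cleaves plasminogen to plasmin, a broad serine protease that degrades fibrin and can activate latent metalloproteases. Serpins trap the activators, and TIMP proteins block the active site of metalloproteases. The system is best known for the movement of leukocytes and tumour cells through matrix. The receptor itself has no protease activity, is held by a lipid anchor, and also binds vitronectin and works with integrins.

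The receptor gene stood apart from the genes of its ligand and of the metalloprotease inhibitors. The log2 fold change of Plaur was 2.92 ± 0.21 (SE) at a mean of 3880 normalized counts by the authors' deposited table, a 7.58-fold difference with a 95% interval of 5.73 to 10.04. Mmp10, Timp2 and Timp1 had the opposite sign. Plau, which encodes urokinase, had a mean below that of every gene with an adjusted p, and its difference was not resolved. Among the 7 genes with an adjusted p, 1 was positive (Plaur), 2 were negative (Mmp10 and Timp2) and 4 did not pass 0.05, where 24.5% of all 14961 tested genes passed (11.0% on the positive side, 13.5% on the negative side).

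**Figure D1:**
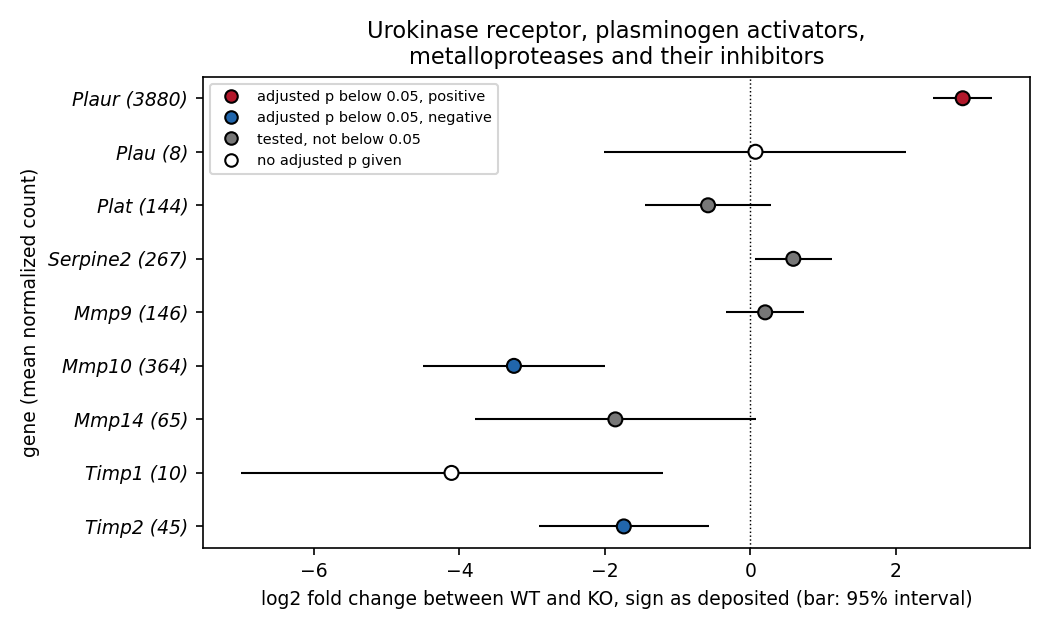
Log2 fold change between WT and KO (horizontal axis, sign as deposited) of the 9 genes, with 95% intervals as bars and the mean normalized count in brackets. Plaur lies at 2.92 with a short interval, Mmp10 at -3.25 and Timp1 at -4.11 with long ones, and the intervals of Plau, Plat, Mmp9 and Mmp14 include 0.

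The promoters of Plaur and Mmp10 are shown because these genes had the largest scores in either direction among the 9 and because both hold the same motif close to the start. RefSeq promoters (GRCm38.p6, the mm10 sequence) matched 6 of the 9 genes: Plaur, Serpine2, Mmp10, Mmp14, Timp1 and Timp2. The 250 bases before the start are printed 5′ to 3′ on the strand of the gene, and capitals mark the AP-1 motif TGANTCA. Plaur lies on the plus strand at chr7:24462233-24462482 and Mmp10 on the plus strand at chr9:7502092-7502341.
Plaur: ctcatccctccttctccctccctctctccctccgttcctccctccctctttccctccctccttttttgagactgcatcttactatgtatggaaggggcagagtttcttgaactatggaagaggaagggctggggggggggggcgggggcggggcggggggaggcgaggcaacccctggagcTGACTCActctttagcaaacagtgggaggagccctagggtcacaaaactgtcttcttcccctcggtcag
Mmp10: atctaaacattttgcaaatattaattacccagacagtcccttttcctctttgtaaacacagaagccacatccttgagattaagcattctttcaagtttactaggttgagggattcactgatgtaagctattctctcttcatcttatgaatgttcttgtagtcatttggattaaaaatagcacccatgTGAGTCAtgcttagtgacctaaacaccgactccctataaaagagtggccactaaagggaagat

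The AP-1 motif, the binding site of Fos and Jun dimers, began 69 bases before the start of Plaur, as TGACTCA, and 63 bases before that of Mmp10, as TGAGTCA. These were the 2 of 6 promoters that held TGANTCA on either strand between 250 bases before and 50 bases after the start, against 7.81% of 32851 promoters of this length. The Mmp10 promoter also held a TATA box (TATAAA) 29 bases before the start, found in 13.6% of promoters on either strand. It had 37.2% GC and 1 CpG. The Plaur promoter had 59.6% GC and 6 CpG, with GC boxes (GGGCGG, in 35.7% of promoters on either strand) beginning 111, 105 and 100 bases before the start. These GC boxes did not overlap the AP-1 motif. A GC box was held by 5 of the 6 promoters, all but that of Mmp10. The 250 bases taken for Serpine2 and for Timp2 lie within the annotated span of each gene and overlap 2 annotated exons each. The ETS motif of the PEA3 type (AGGAAG) was held by 4 of the 6 promoters, those of Plaur, Mmp14, Serpine2 and Timp1, against 35.4% of all promoters, and the cyclic AMP response element TGACGTCA by 0 of 6 against 1.79%, both on either strand. These matches are letters in a window and show no binding. The motifs were chosen after the values had been seen, and AP-1 is marked because both promoters hold it. The counts beside the shares over all promoters are thus a description and no test of enrichment. The AP-1 motif stood in the promoters of genes with opposite signs.

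Levels were compared per length, as the mean normalized count divided by the exonic length in kilobases. Plaur led with 1483 normalized counts per kilobase, above 95.8% of tested genes. Mmp10 followed with 211.5 normalized counts per kilobase, above 73.1% of tested genes. The abundant pair by this mean thus comprised the receptor and 1 secreted protease. The mean runs over the fitted libraries, while the genotypes differed 7.58-fold for Plaur and 9.52-fold for Mmp10. The order of levels within either genotype was not available here.

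Then came Mmp9 with 41.2, Serpine2 with 32.3 and Plat with 23.0 normalized counts per kilobase. Timp2 (11.5), Timp1 (11.4) and Mmp14 (10.9 normalized counts per kilobase) lay close together, and Plau was last with 3.22. No spread over samples was available for these levels, and the order from Mmp9 to Serpine2 and from Timp2 to Mmp14 changed when the longest transcript gave the length. By the same mean over the fitted libraries, Plaur had 461 times the level of Plau per kilobase. In these sorted cells the receptor transcript was thus measured largely without that of its ligand.

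**Figure D2:**
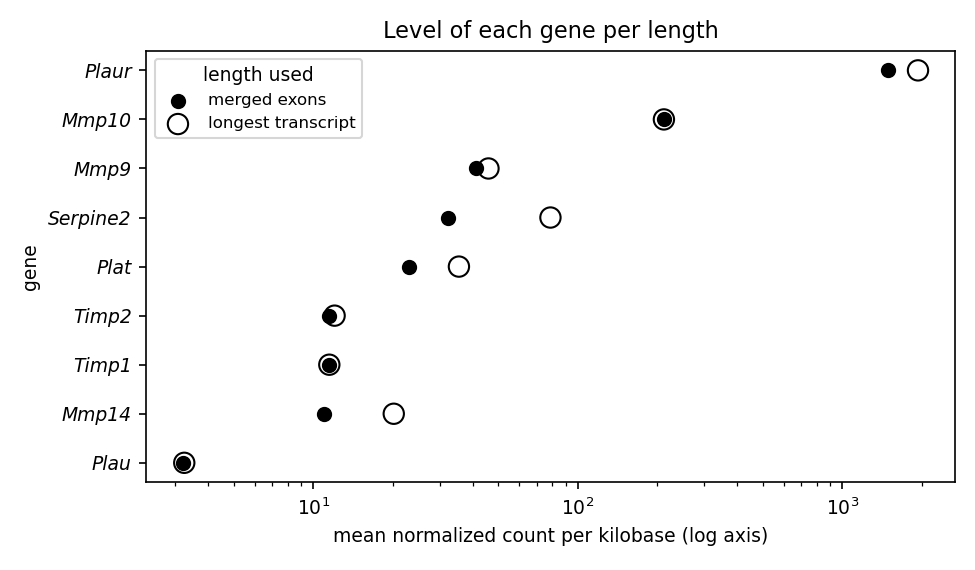
Mean normalized count per kilobase over the fitted libraries (horizontal log axis) of each gene, with filled points for merged exons and rings for the longest transcript. Plaur at 1483 and Mmp10 at 211.5 lie above the other 7 genes by either length, and Plau at 3.22 lies lowest.

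Plaur spans mm10 chromosome 7 from 24462484 to 24475968 on the plus strand, and no other annotated gene overlaps it. Of all tested genes its score, the fold change over its SE, ranked 3 by size, and its fold change ranked 40 among positive values. Its SE was 1.46 times the median SE of the 200 tested genes nearest in mean. The high level and the small SE make Plaur the most precisely measured of the 9 genes.

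The ligand gene Plau (chromosome 14, 20836660 to 20843385, plus strand) had a mean of 7.62 normalized counts by the authors' deposited table, below the 10.46 normalized counts of the lowest gene with an adjusted p. Its log2 fold change was 0.07 ± 1.06 (SE) by the authors' deposited table. The 95% interval of -2.01 to 2.15 reaches a 4.43-fold difference in the positive direction, so that smaller differences were not detectable at this depth. Plat, the tissue-type activator that acts on fibrin-bound plasminogen (chromosome 8, 22757727 to 22782844, plus strand), had -0.58 ± 0.44 (SE) at a mean of 143.6 normalized counts by the authors' deposited table. Its interval of -1.44 to 0.28 included 0.

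Serpine2 encodes protease nexin-1, a serpin that inhibits thrombin, urokinase and tissue-type activator (chromosome 1, 79794197 to 79861180, minus strand). It had 0.59 ± 0.27 (SE) at a mean of 267.3 normalized counts by the authors' deposited table. Its adjusted p, 0.096, missed the threshold. The positive sign of Plaur was thus shared by Serpine2 only as a value short of the threshold.

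The metalloprotease genes differed among themselves. Mmp10, stromelysin-2, a secreted protease that cleaves several matrix proteins and activates other metalloproteases (chromosome 9, 7502352 to 7510240, plus strand), had -3.25 ± 0.64 (SE) at a mean of 364.3 normalized counts by the authors' deposited table. This is a 9.52-fold difference, with a 95% interval of 4.00 to 22.7. Mmp9, gelatinase B, which cleaves denatured collagen and type IV collagen (chromosome 2, 164940780 to 164955850, plus strand), had 0.21 ± 0.27 (SE) at a mean of 145.9 normalized counts by the authors' deposited table. Its interval of -0.33 to 0.74 holds differences of at most 1.67-fold in the positive direction, so that a difference of the size seen for Mmp10 lies outside it.

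Mmp14, the membrane-anchored protease that activates Mmp2 (chromosome 14, 54431612 to 54445364, plus strand), had -1.86 ± 0.99 (SE) at a mean of 65.2 normalized counts by the authors' deposited table. The interval of -3.79 to 0.08 included 0, and Mmp14 did not pass. Mmp14 thus had a large but unresolved fold change with a wide error, whereas the value of Mmp9 was small and its error ordinary. The intervals of these genes overlapped, and a difference between them was not tested.

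Both inhibitor genes were negative. Timp2, which blocks metalloproteases and also bridges Mmp14 to latent Mmp2 (chromosome 11, 118301069 to 118355740, minus strand), had -1.74 ± 0.60 (SE) at a mean of 44.6 normalized counts by the authors' deposited table. The gene Cep295nl lies within its span on the same strand and had a mean of 2.20 normalized counts in the table. The call of Timp2 ended at an adjusted p of 0.01, and with a minimum mean of 100 it was not among the genes tested.

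Timp1, a secreted inhibitor induced in inflamed tissue (chromosome X, 20870166 to 20874735, plus strand), had the largest fold change of the 9 genes, -4.11 ± 1.48 (SE), at a mean of only 10.15 normalized counts by the authors' deposited table. This mean fell just short of the 10.46 normalized counts of the lowest gene with an adjusted p, so that Timp1 has a deposited p-value, 0.00553, and no adjusted one. With p adjusted by Benjamini-Hochberg over all 39444 genes that have one, the adjusted p of Timp1 was 0.0697 and that of Timp2 0.050, just below the threshold. Timp1 lies within Syn1, which is on the opposite strand and had a mean of 6.06 normalized counts, and libraries that do not mark strand cannot separate the reads of overlapping genes. Its interval of -7.01 to -1.21 leaves the size of the difference uncertain.

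**Figure D3:**
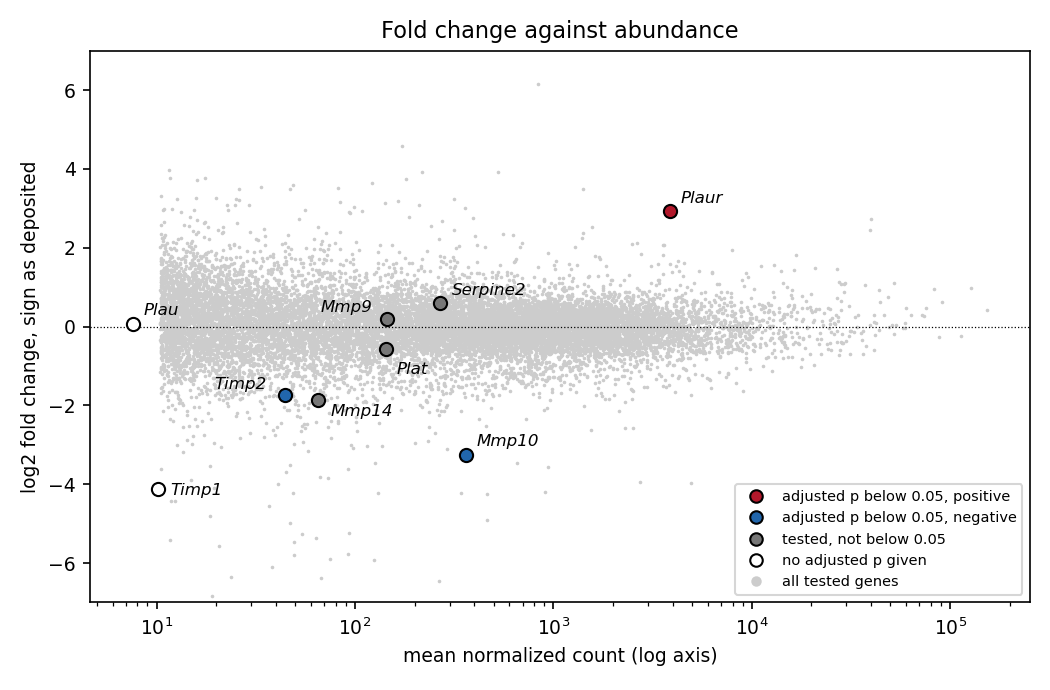
Log2 fold change (vertical axis, sign as deposited) against the mean normalized count (horizontal log axis) for all tested genes in grey, with the 9 genes labelled and 17 tested genes beyond 7 not drawn. Plaur at a mean of 3880 lies above most genes of like mean, Mmp10 at 364.3 below most, and Timp1 and Plau lie left of the lowest tested mean.

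The SEs of the 9 genes fell into separate ranges for their level. For Mmp10 the SE was 3.20 times the median of the 200 tested genes nearest in mean, and for Mmp14 2.65 times. Ratios above 2 were found in 3.15% of tested genes. Mmp9 (1.002), Serpine2 (1.24), Timp2 (1.33) and Plat (1.61) had ratios below 2.

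Fibroblast and smooth muscle markers, of cells that also express Mmp14 and TIMP genes, shared the wide errors: 8 of 12 had a ratio above 2. All 12 lay below 0, with a median log2 fold change of -1.51 against -0.0056 over all tested genes, and 1 of 12 passed, Pdgfrb with -1.63 ± 0.34 (SE) by the authors' deposited table. The collagen gene Col3a1, with the highest mean of them, had -1.61 ± 1.08 (SE) at a mean of 452.9 normalized counts by the authors' deposited table. For macrophages and monocytes the median was -1.02, with 10 of 15 above a ratio of 2 and 1 negative, and neutrophil markers a median of -1.002, with 7 of 9 above it and 1 negative. Dendritic cell (5 of 9), B and plasma cell (4 of 8), T cell (2 of 10) and mast cell, basophil and eosinophil markers (1 of 5) held negative calls, with 0 positive in each, also at an unadjusted p below 0.05. Epithelial markers gave 0 calls of 8 (2 negative at an unadjusted p below 0.05) and endothelial markers 1 positive of 11. The markers of these other cells thus mostly had the sign of Mmp10, Mmp14, Timp1 and Timp2. A ratio above 2 was found for 7 of 8 B and plasma cell, 5 of 8 epithelial and 7 of 11 endothelial markers. The counts were 1 of 9 for dendritic cells, 3 of 10 for T cells and 2 of 5 for mast cells, basophils and eosinophils. The wide error of Mmp10 and Mmp14 was thus shared by some of these lists and not by all. The part of these other cells in the values of the 9 genes was not tested. Fewer cells of a type cannot be told apart from less RNA per cell in bulk samples.

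**Figure D4:**
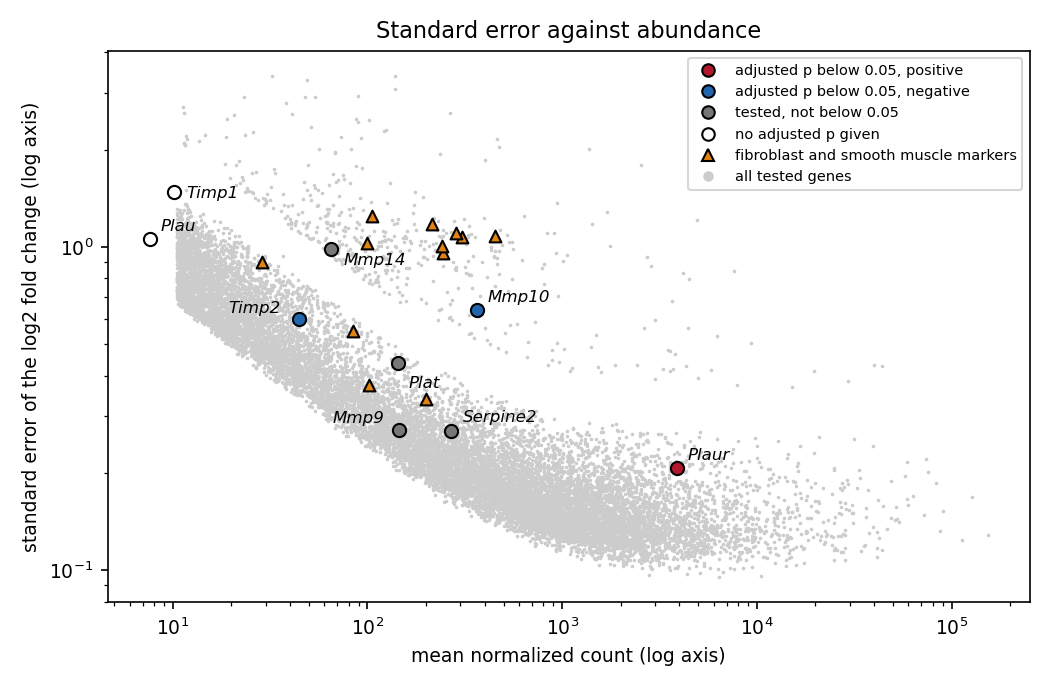
Standard error of the log2 fold change (vertical log axis) against the mean normalized count (horizontal log axis) for all tested genes in grey, the 9 genes as circles and 12 fibroblast and smooth muscle markers as triangles. Mmp10 and Mmp14, at 3.20 and 2.65 times the SE of genes of like mean, lie with 8 of the 12 markers above the main cloud.

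The rest of the plasminogen system moved in both directions. Apart from the genes above, 10 of its 16 listed genes were tested, of which 3 were positive, 2 negative and 5 did not pass, with a median of -0.089. The 2 negative genes encode the chains of 1 plasminogen-binding complex of the cell surface: Anxa2, annexin A2, had -1.64 ± 0.19 (SE) at a mean of 9078 normalized counts by the authors' deposited table, and its partner S100a10 had -0.48 ± 0.12 (SE) at 9437 by the authors' deposited table. A separate plasminogen receptor, Plgrkt, was positive at 0.67 ± 0.18 (SE) by the authors' deposited table. The receptor for the activator and the receptors for its substrate therefore did not share 1 sign.

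Hgfac, a serine protease that activates hepatocyte growth factor, was positive at 1.19 ± 0.27 (SE) by the authors' deposited table. Its substrate gene Hgf had 0.96 ± 0.44 (SE) by the authors' deposited table, adjusted p 0.0998. The inhibitor Serpinb2 (0.02), the clearance receptor Lrp1 (-0.21), thrombomodulin (Thbd, -0.42) and vitronectin (Vtn, -0.20) missed the threshold by the authors' deposited table. The plasminogen gene Plg itself had a mean of 1.94 normalized counts and no adjusted p by the authors' deposited table.

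Among partners of the urokinase receptor, 2 integrin chains were positive. Of 16 tested partners, 2 were positive, 1 negative and 13 did not pass, with a median of 0.11. Itga3, the alpha chain of a laminin-binding integrin, had 1.67 ± 0.16 (SE) at a mean of 1033 normalized counts by the authors' deposited table, adjusted p 2.53e-21. Itga5, the alpha chain of the fibronectin receptor, had 0.99 ± 0.22 (SE) by the authors' deposited table, adjusted p 0.000115. Both chains pair with the beta chain of Itgb1, which had -0.23 ± 0.18 (SE) by the authors' deposited table and did not pass. The negative partner was Itga4, with -0.51 ± 0.14 (SE) by the authors' deposited table, and Itgb2, with the highest mean of the list, had 0.13 ± 0.13 (SE) by the authors' deposited table and did not pass.

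Beyond Mmp9, Mmp10 and Mmp14, 12 of 20 other metalloprotease genes were tested, of which 0 were positive (1 at an unadjusted p below 0.05), 1 negative and 11 did not pass, with a median of -0.33. The negative gene was Mmp12, macrophage metalloelastase, with -2.09 ± 0.73 (SE) at a mean of 34.7 normalized counts by the authors' deposited table. Its deposited adjusted p, 0.0223, became 0.0579 when p was adjusted by Benjamini-Hochberg over all genes with a p-value. Mmp25, a protease held by a lipid anchor, came after Mmp10 in level, with 132.4 normalized counts per kilobase. Its log2 fold change was 0.39 ± 0.20 (SE) at a mean of 702.4 normalized counts by the authors' deposited table, adjusted p 0.14. Mmp2, the gelatinase that Mmp14 activates, had -1.45 ± 0.97 (SE) by the authors' deposited table, with an SE 3.37 times that of genes of like mean. The remaining tested genes, Mmp3, Mmp8, Mmp11, Mmp15, Mmp16, Mmp17, Mmp19, Mmp23 and Mmp27, lay between -1.53 and 0.26 by the authors' deposited table.

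Mmp10 lies in a cluster of 10 metalloprotease genes on chromosome 9, between 7272514 and 7699585. Of these, 5 were tested, all 5 lay below 0 and 2 passed, Mmp10 and Mmp12. Its neighbours on either side by position are Mmp1a, with a mean of 0.63 normalized counts and no adjusted p, and Mmp8, with -0.79 ± 0.63 (SE) and no call by the authors' deposited table. Mmp3, a stromelysin like Mmp10, had -1.53 ± 1.35 (SE) by the authors' deposited table. Per kilobase, Mmp10 (211.5 normalized counts) stood above Mmp8 (17.6) and Mmp3 (16.3).

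Of the other metalloprotease inhibitors, 2 had an adjusted p and 0 of these passed, also at an unadjusted p below 0.05. Timp3, an inhibitor bound to matrix, had -0.86 ± 1.09 (SE) by the authors' deposited table, with an SE 5.32 times that of genes of like mean. Reck, an inhibitor anchored in the membrane, had 0.17 ± 0.27 (SE) by the authors' deposited table. Genes that dock or activate metalloproteases gave 1 positive and 1 negative of 15, the heparan sulfate proteoglycans Sdc4 with 1.05 ± 0.24 (SE) and Sdc1 with -1.19 ± 0.41 (SE) by the authors' deposited table. Furin, the convertase that activates Mmp14, had 0.17 ± 0.21 (SE) by the authors' deposited table, short of the threshold.

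Related proteases and inhibitors were measured beside them. Of 25 tested ADAM and ADAMTS genes, 3 were positive and 2 negative, with a median of 0.040. Adam15 had 0.80 ± 0.19 (SE), Adam17, which sheds TNF from the cell surface, 0.39 ± 0.12 (SE) and the leukocyte sheddase Adam8 -0.46 ± 0.12 (SE) by the authors' deposited table. The 5 ADAM and ADAMTS calls were all of less than 2-fold.

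Of 19 tested serpins and other secreted or cytosolic protease inhibitors, 3 were positive and 3 negative, with a median of -0.75. The intracellular serpins Serpinb6b (1.58 ± 0.20 SE) and Serpinb9 (1.02 ± 0.17 SE), the latter an inhibitor of granzyme B, were positive by the authors' deposited table. The cystatin gene Cst7 was negative at -0.75 ± 0.15 (SE) by the authors' deposited table, and Cst3, with the highest mean of the list, had 0.32 ± 0.14 (SE) by the authors' deposited table without passing. Relatives of the urokinase receptor with the same fold gave 1 positive gene of 10 tested, Ly6a (Sca-1) with 0.69 ± 0.15 (SE), and Ly6e, with the highest mean of the list, had 0.30 ± 0.13 (SE) and missed the threshold by the authors' deposited table.

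Of 24 tested matrix genes, 2 were positive and 0 negative, the same counts as at an unadjusted p below 0.05, while 18 lay below 0 and the median was -0.96. Ecm1 had 1.59 ± 0.18 (SE) at a mean of 3383 normalized counts and Nid1, a basement membrane linker, 0.70 ± 0.27 (SE) by the authors' deposited table. Ratios of SE above 2 were found for 15 of the 24, and the list shares 5 genes with the fibroblast markers. The fibronectin gene Fn1 had 0.28 ± 0.22 (SE) by the authors' deposited table and did not pass.

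Of 21 tested AP-1 and ETS factor genes, 7 were positive and 2 negative, with a median of 0.31. Jun had 1.45 ± 0.16 (SE), Fosl2 1.07 ± 0.20 (SE) and Fos 1.05 ± 0.18 (SE) by the authors' deposited table. The negative genes were the leucine zipper factors Batf3 with -3.01 ± 1.04 (SE) and Batf with -0.62 ± 0.14 (SE) by the authors' deposited table. Junb, with the highest mean of the list, had 0.48 ± 0.20 (SE) by the authors' deposited table, adjusted p 0.0642. Jund had -0.04 ± 0.30 (SE) by the authors' deposited table and missed the threshold. Batf3 had a mean of only 12.7 normalized counts, near the 10.46 of the lowest gene with an adjusted p. At an adjusted p below 0.01 the list held 5 positive calls and 1 negative call. Whether any of these factors acts on Plaur or Mmp10 was not tested.

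**Figure D5:**
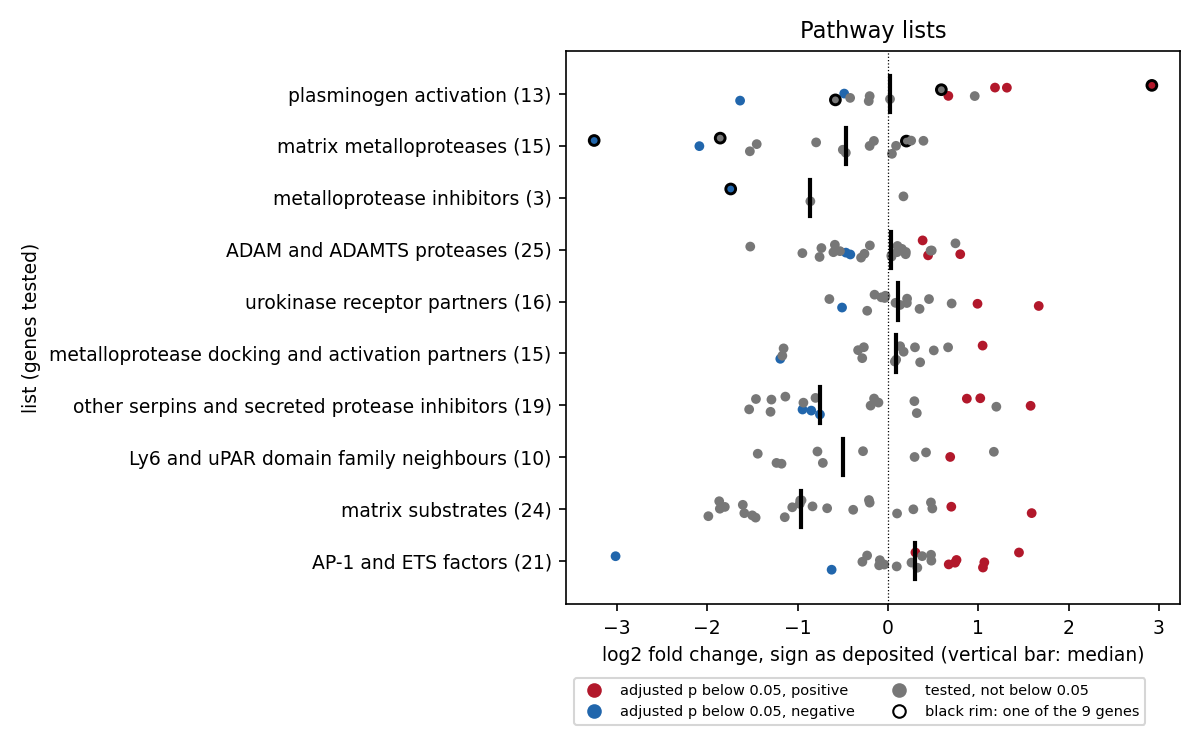
Log2 fold change (horizontal axis, sign as deposited) of each tested gene in 10 lists, with red and blue for an adjusted p below 0.05, grey for the rest, black rims for the 7 tested genes of the 9 and a bar at each median, these genes included. Plaur at 2.92 is the highest point and Mmp10 at -3.25 the lowest of all lists.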

How the data were processed

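RNA of 6 samples, 3 WT and 3 KO, was sequenced. Per the labels' protocols, cDNA synthesis used the SMART-Seq HT chemistry on RNA of 7 to 14 ng/ul, and a transposase kit made the libraries. The tools named are HISAT2 and Cufflinks and the genome build is mm10, per the submitters' processing notes. The counting tool, annotation, filters and strand handling were not given in the sources used here. Per the file headers, the authors deposited per gene the mean of normalized counts (a signal averaged over the libraries they fitted), a log2 fold change with its SE, a score, and p-values before and after adjustment. Which libraries, and how many, entered that fit is not stated, so that the number of replicates behind the p-values is unknown. Depth per sample was not used, and the SE gives the precision of each value.

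Per-sample values in 12 columns, with 6 names, matched no label and entered no result, so that the count test planned for matching columns was not run, and no correlation between genes over samples was computed. Adjusting the p-values of tested genes by Benjamini-Hochberg gave the deposited adjusted p-values with a largest gap of 7.56e-07. A call is an adjusted p below 0.05. The 95% intervals are the deposited log2 fold change and SE under a normal distribution.

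The 9 genes and all gene lists were chosen with earlier results of these data known. The motifs were chosen after the table had been seen. Lists are described by counts and medians. Named genes were the 9 genes, Stk11, every tested gene of the plasminogen, metalloprotease and inhibitor lists, up to 3 called genes with the smallest p and the most abundant gene of every other pathway list, the most abundant and the most significant gene of marker lists (given only for lists that the text uses), and overlapping genes; others were named after their values were seen. The values of 1 gene named by this rule are not reported here. Where a symbol stood on more than 1 row, the more abundant row was used.

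Coordinates, lengths and GC content came from GENCODE M21 on mm10, in which 99.15% of the gene identifiers were found. Computations ran in Python 3.11.15 with numpy 2.4.6, pandas 2.3.3, statsmodels 0.14.6 and scipy 1.17.1, and figures were drawn with matplotlib 3.10.9. The adjustment and the trend removal were tested on simulated data.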

Additional observations from a re-analysis of the deposited data

How the results depend on the processing

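The calls of the 9 genes were 3 as deposited, 3 with p adjusted over every gene with a p-value and 3 with a 2-fold minimum, and 2 (Plaur and Mmp10) at an adjusted p of 0.01 or with a minimum mean of 100 normalized counts, a filter that also removes Timp2 from the genes tested. Over all genes, 3668 calls became 2363 at 0.01 and 1142 with a 2-fold minimum. Over all pathway lists, 37 calls became 17 with a 2-fold minimum, as fewer genes can pass. The order of the 9 levels per kilobase kept 4 of 9 ranks with the longest transcript as length. Of 80 values computed under alternatives, 57 stayed within the limits set (1.5 times for a count, 1 SE for a fold change) and 23 moved beyond them. Removing lowess trends with exonic length and GC content moved the fold changes of the 9 genes by -0.093 to 0.33, and centring on the most abundant 25% of tested genes by 0.037, at most 0.54 SE, with no change of sign. Within the 150 bases before the start, TGANTCA was in 4.24% of promoters and 2 of the 6, AGGAAG in 19.7% and 3, GGGCGG in 28.6% and 5, TATAAA in 7.57% and 1, and TGACGTCA in 1.36% and 0.

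No paired analysis was possible because the per-sample columns matched no label, and for the same reason leaving out single samples and a second count test were not run; whether 1 library carries the values of Mmp10, Mmp14 or Timp1 was not tested. Depth limits Plau and Timp1, both below the lowest mean with an adjusted p.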

Other observations

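Around the urokinase receptor gene, 16 tested genes lay within 250000 bases of Plaur, a window chosen after the table had been seen. Of these, 1 was positive and 0 negative, where 11.0% and 13.5% of all tested genes were called on these sides. The median log2 fold change was 0.54, against -0.0056 over all tested genes. A shift of the region was not tested. The positive gene was Phldb3, with 0.86 ± 0.27 (SE) in the authors' deposited table. Kcnn4, a potassium channel gene with a mean of 3559 normalized counts, had 0.16 ± 0.10 (SE) by the authors' deposited table and missed the threshold. Tex101, a relative of the receptor in the same region, had 1.17 ± 0.48 (SE) at a mean of 28.2 normalized counts by the authors' deposited table, adjusted p 0.0571.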
